A study of Homo sapiens with 6 samples.

Results

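The transcripts of NF-kB and of its inhibitors were followed in SW620 cells, an established human colorectal cancer line, after siRNA against OSBPL3. The genes were chosen by name. They included the 5 DNA-binding subunits (NFKB1, NFKB2, RELA, RELB and REL) and 3 inhibitors of the IkB family (NFKBIA, NFKBIB and NFKBIE). TNFAIP3, a ubiquitin-editing enzyme of the pathway, and BIRC3, a ubiquitin ligase, completed the 10. All 10 symbols were found among the 20729 gene symbols of the deposited count table, and all 10 passed the filter on low counts. The study compared 3 libraries of cells given a control siRNA (siNC) with 3 libraries of cells given an siRNA against OSBPL3 (siOSBPL3), with no other treatment named. The product of OSBPL3 belongs to the lipid-transfer proteins related to the oxysterol-binding protein. The dose, sequence and duration of the siRNA, and whether each library had its own culture, are not given in the sources used here, so the p-values speak for the variation among these 6 libraries, part or all of which may be technical.

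NF-kB factors are dimers of Rel-family proteins that wait in the cytoplasm, held there by IkB proteins. In the canonical route a receptor for TNF, interleukin-1 or a microbial product activates the IKK kinases, the IkB protein is degraded, and dimers such as that of the NFKB1 and RELA products enter the nucleus. In the non-canonical route the kinase made from MAP3K14 leads to cutting of the NFKB2 precursor, which then acts with the RELB product. Many of the genes studied here are textbook NF-kB targets themselves, NFKBIA and TNFAIP3 above all, which makes the pathway shut itself off. In gut epithelium NF-kB is known for inflammatory and survival gene expression.

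Because the family is known to act on its own genes, the upstream sequences were searched for the kappaB consensus, the 10-letter motif that NF-kB dimers bind. RefSeq transcript starts on GRCh38.p14 were matched for 8 of the 10 genes in the promoter table used here, which did not include RELB and NFKBIE. Each window held the 250 bases before a start, both strands were searched, and overlapping matches counted as 1 site. Of 12 sites found, 10 are printed here (1 more lay before each of NFKB2 and BIRC3). All were kept for fitting the same motif, so their likeness follows from the search. The printed sites stand on the strand of the gene, 5′ to 3′, within 30 bases, and capitals mark the match. The consensus searched was GGGRNNYYCC, with R for A or G, Y for C or T and N for any base. In NFKBIA, TNFAIP3 and BIRC3 the match is on the opposite strand, so the capitals show its reverse complement. Capitals cover 11 bases in the first NFKB2 stretch and in those of REL and NFKBIB, where overlapping matches were merged.
NFKB1, chr4:102501300-102501329, + strand: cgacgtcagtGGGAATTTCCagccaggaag
NFKB2, chr10:102394462-102394491, + strand: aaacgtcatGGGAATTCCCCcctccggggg
NFKB2, chr10:102394490-102394519, + strand: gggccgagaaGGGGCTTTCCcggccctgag
NFKB2, chr10:102395674-102395703, + strand: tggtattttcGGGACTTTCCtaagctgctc
REL, chr2:60881518-60881547, + strand: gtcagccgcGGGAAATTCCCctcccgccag
NFKBIA, chr14:35404811-35404840, - strand: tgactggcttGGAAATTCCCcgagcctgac
NFKBIB, chr19:38899932-38899961, + strand: ggcgtggtgGGGAATTTCCCgcagggcgga
TNFAIP3, chr6:137867182-137867211, + strand: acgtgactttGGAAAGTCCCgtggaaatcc
TNFAIP3, chr6:137867194-137867223, + strand: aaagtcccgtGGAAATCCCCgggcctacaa
BIRC3, chr11:102317275-102317304, + strand: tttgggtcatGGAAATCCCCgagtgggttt

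The consensus was present before at least 1 start of 7 of the 8 genes, against 11.8% of the 27305 genes with a window (9.96% of 35116 windows). RELA was the exception, and no match says only that these letters are not in its 2 windows. Of the 12043 tested genes with a window, 1888 had the consensus. The number of windows per gene, which differs between genes, was not adjusted for. Counted from the first base of the match, the sites began 49 bases before the start in NFKB1, 47 in REL, 81 in NFKBIA, 28 in NFKBIB, 67 and 55 in TNFAIP3 and 199 and 135 in BIRC3. The 4 sites of NFKB2 began 107 and 78 bases before 1 start and 176 and 21 before another. A looser pattern, GGGNNNNNCC, was found for all 8 genes but also for 57.8% of genes with a window. A match is a description of sequence and does not show that a factor bound there. The last 120 bases before the start of NFKBIA are shown whole, because NFKBIA had the highest level per length of the 10 genes in both groups.
NFKBIA, chr14:35404750-35404869, - strand: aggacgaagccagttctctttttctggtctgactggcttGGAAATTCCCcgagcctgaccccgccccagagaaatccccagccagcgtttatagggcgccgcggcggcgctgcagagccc

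Library totals ran from 30040020 to 39701340 counts. Levels are given in CPM, counts divided by the library total after TMM scaling and put on a common depth. The targeted gene, OSBPL3, averaged 176 ± 2.70 CPM in siNC against 22.5 ± 15.4 CPM in siOSBPL3 (SD, n = 3 each). By edgeR's quasi-likelihood test its log2 fold change was -2.97 ± 0.48 (SE, adjusted p = 0.0016). Replicate 1 kept 22.8% of the siNC mean, replicate 2 kept 6.93% and replicate 3 kept 8.61%. Differences between the groups were widespread: 80.2% of the 15506 genes tested passed the test, 40.4% higher and 39.8% lower in siOSBPL3, and library values did not overlap between groups for 83.0%. The 12 markers of colorectal epithelium summed to 7111 to 7188 CPM in siNC and 4922 to 6057 CPM in siOSBPL3, and of the 10 tested 5 were higher, 3 lower and 2 missed the threshold. KRT8 (2996 to 2382 CPM), KRT18 (2183 to 1131) and VIL1 (482 to 62.5) fell, EPCAM (516 to 619 CPM) and CDX2 (1.15 to 63.5) were among those that rose, and KRT20, CDX1 and CEACAM5 were near 0 in both groups. The 7 leukocyte markers in the table summed to 20.1 to 22.3 CPM in siNC and 9.63 to 14.0 CPM in siOSBPL3, with PTPRC and CD3E at or below 0.11 CPM on average in either group. Of the 4 leukocyte markers tested, CD68, which makes up most of the siNC sum, was among the 2 that fell (19.0 to 5.87 CPM), and CD14 (0.28 to 3.06 CPM) and ITGAM (0.021 to 2.05 CPM) rose. The 5 fibroblast and endothelial markers in the table summed to 12.8 to 14.6 CPM and to 3.64 to 6.75 CPM. The part of other cell types in the results was not tested. In bulk RNA, fewer cells of a kind and less RNA per cell cannot be told apart.

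Of the 10 genes, 9 passed the test as higher in siOSBPL3, where 40.4% of all genes tested did, and 1, REL, as lower. The median log2 fold change of the 10 was 1.50, beside -0.00089 over all genes tested. By size, 7 of the 10 were at least 2-fold higher, as were 24.8% of all genes tested, and REL was at least 2-fold lower, as were 24.1%. In 6 of 14 alternative analyses 9 were higher, in 7 of them 8, and after adjusting each library for the GC content and length of transcripts (the GC and length correction) 7 were higher and 2 lower. Values did not overlap between the groups for any of the 10, as for 83.0% of all genes tested. By size of change the order was NFKBIE, RELB, NFKBIA, NFKB2, REL (downward), BIRC3, TNFAIP3, NFKB1, NFKBIB and RELA.

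**Figure D1:**
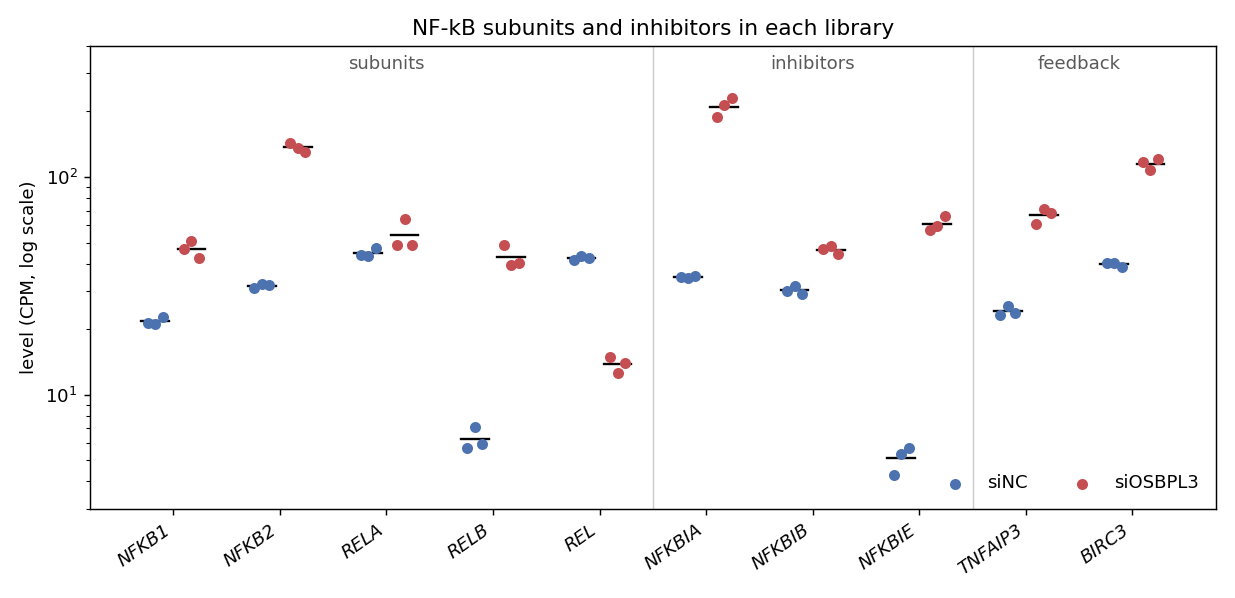
Level of each gene in every library (CPM, log axis), with 3 points per group (siNC blue, siOSBPL3 red) and bars at the group means. REL alone lies lower in siOSBPL3, from a mean of 42.5 to 13.8 CPM; RELA separates least, with 2 of its 3 siOSBPL3 points at 48.6 CPM against 47.0 in the highest siNC library.

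Among the subunits, RELB and NFKB2, the partners of the non-canonical route, rose most. RELB (chromosome 19, 45001464 to 45038192, GRCh38.p14) stood at 5.72, 7.14 and 5.93 CPM in the siNC libraries and at 48.7, 39.6 and 40.2 CPM in the siOSBPL3 libraries. The lowest siOSBPL3 library was thus far above the highest siNC library, and the log2 fold change was 2.77 ± 0.13 (SE, n = 3 each; edgeR adjusted p = 2.0e-09). NFKB2 (chromosome 10, 102394110 to 102402529) went from 31.1, 32.2 and 31.8 CPM to 143, 136 and 131 CPM, a log2 fold change of 2.11 ± 0.08 (adjusted p = 3.0e-10). Its spread within a group was small in both, with a coefficient of variation of 1.76% in siNC and 4.36% in siOSBPL3. With the correction for GC content and length, the log2 fold change of RELB was 1.63 and that of NFKB2 1.32.

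The subunits of the canonical route moved less, but for NFKB1 the gap to NFKB2 was small with the GC and length correction. NFKB1, which encodes the precursor of the partner of RELA, had 21.4, 21.2 and 22.7 CPM in siNC and 46.6, 50.8 and 42.4 CPM in siOSBPL3, a log2 fold change of 1.10 ± 0.10 (adjusted p = 5.6e-07, edgeR). Every siOSBPL3 library lay above every siNC library, and the correction left the value at 1.18, beside 1.32 for NFKB2. RELA, the transactivating subunit that carries most canonical output, had 43.9, 43.2 and 47.0 CPM in siNC and 48.6, 64.5 and 48.6 CPM in siOSBPL3. Its libraries did not overlap, but siOSBPL3 replicate 2 stood well above the other libraries. The log2 fold change of 0.27 ± 0.11 (edgeR adjusted p = 0.046) passed the test narrowly. It became 0.13 (adjusted p = 0.18) without siOSBPL3 replicate 2, 0.24 to 0.30 (adjusted p from 0.063 to 0.13) without any single siNC library, and -0.20 (adjusted p = 0.081) after the correction for GC and length. Over all alternatives the adjusted p of RELA ran from 0.0084 to 0.18.

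REL, which encodes c-Rel, a subunit best known from lymphocytes, was the only one of the 10 to fall. The gene (chromosome 2, 60881574 to 60931612) stood at 41.4, 43.3 and 42.7 CPM in siNC and at 14.9, 12.6 and 14.0 CPM in siOSBPL3, with no overlap. The log2 fold change was -1.62 ± 0.10 (n = 3 each; edgeR adjusted p = 2.1e-08), and without any single library it stayed between -1.67 and -1.55. With the GC and length correction it shrank to -0.42 (adjusted p = 0.0017). REL has the longest transcript of the 10 at 11.3 kb and, at 38.7%, the lowest GC content after BIRC3. Across 14434 genes, which are not replicates, log2 fold change and transcript GC content had a Spearman correlation of 0.38, and log2 fold change and length one of -0.21. The part of GC content and length in the fall of REL was not tested beyond that correction. Its exons are also shared, as 50.7% of their bases lie in a non-coding GENCODE gene on the same strand that is not among the symbols used here.

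The inhibitors rose by unequal amounts. NFKBIA encodes IkB-alpha, the inhibitor that is degraded and resynthesised in each canonical cycle. The gene (chromosome 14, 35401513 to 35404749) stood at 34.8, 34.4 and 35.3 CPM in siNC, with a coefficient of variation of 1.28%, and at 188, 213 and 231 CPM in siOSBPL3, a log2 fold change of 2.60 ± 0.10 (edgeR adjusted p = 2.4e-10). Of all genes tested, 9.01% had a log2 fold change at least as high. The siOSBPL3 libraries were wider apart, with replicate 1 the lowest, and none came near the siNC libraries.

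NFKBIE, for IkB-epsilon (chromosome 6, 44258166 to 44265551), had the largest change of the 10. It was scarce in siNC, at 4.26, 5.33 and 5.70 CPM, and stood at 56.9, 59.6 and 66.4 CPM in siOSBPL3, 12.0 times the siNC mean. The log2 fold change was 3.58 ± 0.13 (n = 3 each; edgeR adjusted p = 1.9e-10), and 5.82% of all genes tested had one at least as high. The correction gave 2.78.

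NFKBIB, for IkB-beta, an inhibitor that turns over more slowly, moved least among the inhibitors. It had 30.0, 31.4 and 29.1 CPM in siNC and 46.9, 48.0 and 44.2 CPM in siOSBPL3, a log2 fold change of 0.62 ± 0.09 (edgeR adjusted p = 3.2e-05). Libraries did not overlap. The sign turned after the correction for GC and length, to -0.37 (adjusted p = 0.00085), so the direction of NFKBIB depends on that choice. Its exons share 1.88% of their bases with SIRT2 on the opposite strand, and whether counting used strand is not given in the sources used here.

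Both feedback enzymes rose. TNFAIP3, a ubiquitin-editing enzyme that stops signalling below the TNF receptor, had 23.3, 25.7 and 23.7 CPM in siNC and 60.7, 71.5 and 68.2 CPM in siOSBPL3. Every siOSBPL3 library was higher than any siNC library, with a log2 fold change of 1.46 ± 0.09 (edgeR adjusted p = 2.9e-08). BIRC3, which encodes a ubiquitin ligase that joins the TNF receptor complex and marks the MAP3K14 kinase for degradation, had 40.1, 40.1 and 38.7 CPM in siNC and 117, 108 and 121 CPM in siOSBPL3. Its log2 fold change was 1.54 ± 0.08 (adjusted p = 5.0e-09). With the correction TNFAIP3 was at 1.65 and BIRC3, the poorest of the 10 in GC at 34.8%, at 2.60. BIRC2, its neighbour and close relative with the same role, went the other way, from 104 ± 3.27 to 46.6 ± 2.95 CPM (log2 fold change -1.16 ± 0.08, adjusted p = 6.0e-08, and -0.39 with the correction).

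**Figure D2:**
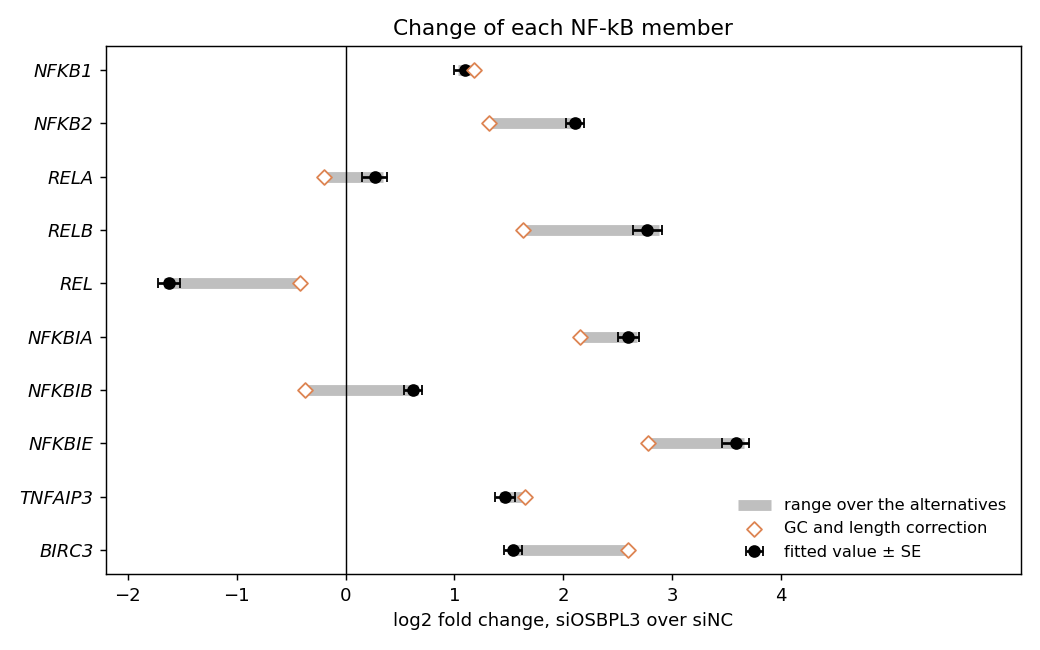
Log2 fold change of each gene, siOSBPL3 over siNC: black points with SE bars are the edgeR values, grey bands the range over the 14 alternatives, open diamonds the value with the GC and length correction. The diamonds end most bands; RELA and NFKBIB cross 0 there, at -0.20 and -0.37, and REL goes from -1.62 to -0.42.

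Levels of different genes were compared per kilobase of the longest transcript. In siNC the order was NFKBIA at 22.3 ± 0.29 CPM per kilobase, NFKBIB at 15.6 ± 0.62 and RELA at 14.1 ± 0.63, then NFKB2, BIRC3, NFKB1, TNFAIP3, REL and RELB, with NFKBIE last at 1.97 ± 0.29 (SD, n = 3). Of the neighbours in that order only NFKB1 (5.20 to 5.56) and TNFAIP3 (4.93 to 5.42) overlapped between libraries. In siOSBPL3 NFKBIA was again first, at 135 ± 13.9 CPM per kilobase, followed by NFKB2 at 40.0 ± 1.75. NFKBIB, NFKBIE, BIRC3, RELB and RELA came next, between 24.0 and 16.9, and each overlapped its neighbour. TNFAIP3 and NFKB1 stood lower, without overlap, and REL was last at 1.23 ± 0.10.

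The make-up of the subunit transcripts therefore differed between the groups. In siNC RELA made up 40.0% ± 1.20 of the summed subunit level per kilobase and NFKB2 26.4% ± 0.48 (SD, n = 3). In siOSBPL3 NFKB2 made up 45.4% ± 1.28, RELB 21.1% ± 2.19 and RELA 19.2% ± 2.81. RELB had been at 7.77% ± 0.94 in siNC, and REL went from 10.7% ± 0.21 to 1.39% ± 0.15. The share of NFKB1 was 15.2% ± 0.34 and 12.9% ± 0.64. These shares are descriptions with no test, and that of REL hangs on its transcript length: by CPM alone it was 28.9% in siNC and 4.71% in siOSBPL3. They also depend on the GC and length correction: with each corrected fold change applied to the siNC level, the siOSBPL3 shares were 39.4% for NFKB2, 20.8% for RELA, 14.4% for RELB and 4.81% for REL. NFKB1 was then at 20.6%, above its siNC share instead of below it.

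**Figure D3:**
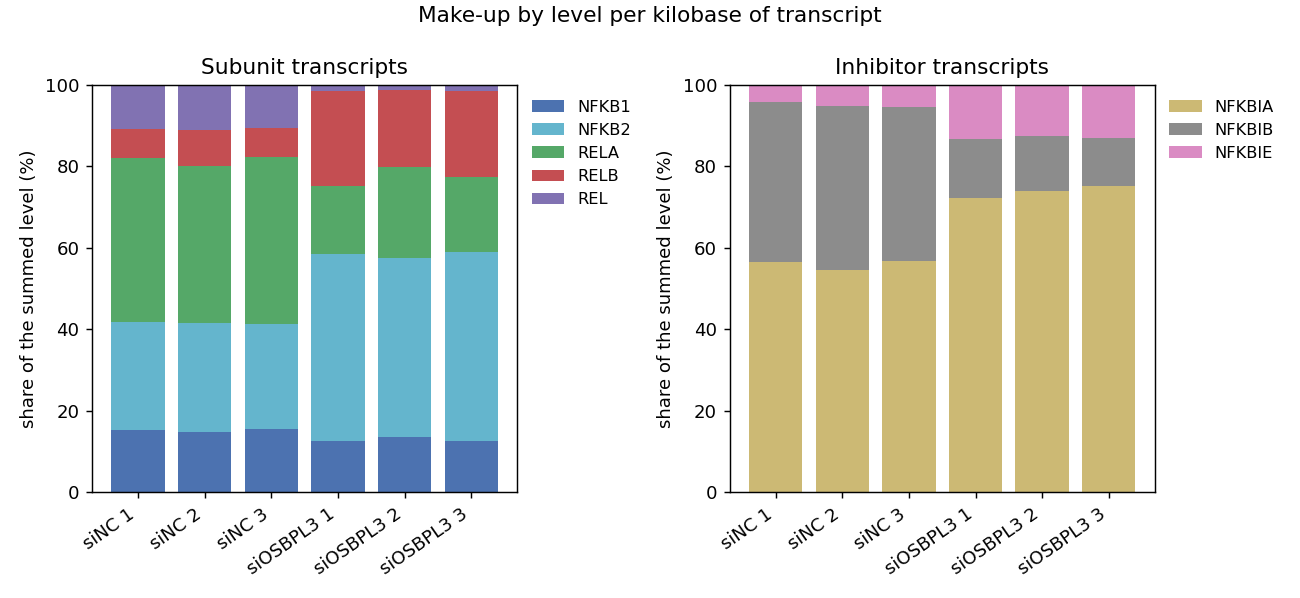
Share of each gene in the summed level per kilobase of the 5 subunits (left) and of the 3 inhibitors (right), in percent, with 1 bar per library. The libraries of a group look alike; NFKB2 and RELB widen and RELA and REL narrow in siOSBPL3, as they do with the GC and length correction, while NFKBIA and NFKBIE widen and NFKBIB narrows.

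The ratio of inhibitors to subunits, a description with no test, was also higher in siOSBPL3. Their summed level per kilobase was 1.14 ± 0.025 times that of the subunits in siNC (1.15, 1.15 and 1.11 by library) and 2.08 ± 0.28 times in siOSBPL3 (1.83, 2.03 and 2.38). NFKBIA went from 55.9% ± 1.17 to 73.9% ± 1.54 of the inhibitor sum and NFKBIE from 4.94% ± 0.69 to 12.9% ± 0.37, while NFKBIB went from 39.2% ± 1.29 to 13.2% ± 1.48. By CPM alone the ratio of inhibitors to subunits was 0.477 and 1.09. The ratio of NFKB2 to NFKB1 was 1.74 ± 0.069 in siNC and 3.52 ± 0.27 in siOSBPL3, per kilobase, but the siOSBPL3 value became 1.91 once GC and length were corrected for, which left the ratio of inhibitors to subunits at 2.13. Transcript ratios say nothing of protein amounts or of where the proteins lie.

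Within siOSBPL3 the libraries differed in their remaining OSBPL3, at 40.2 CPM in replicate 1 and 12.2 and 15.1 CPM in replicates 2 and 3. Replicate 1 had the lowest NFKBIA, NFKBIE and TNFAIP3 of the 3 libraries and the highest NFKB2, RELB and REL. Any link between these values and the level of OSBPL3 was not tested.

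Genes with the most similar profile were sought for the 3 genes of largest change, by Euclidean distance over the 6 libraries in log2 CPM relative to the siNC mean, among 11206 genes. For NFKBIE they included TMEM54 (distance 0.20) and the immunoproteasome gene PSMB9 (0.22). For RELB they were SORBS3 (0.18), CREB5 (0.22) and C6orf141 (0.23). For NFKBIA they were CRIM1 (0.12), the BCL2-family gene BID (0.16) and EMC10 (0.16). The log2 fold changes of TMEM54 and PSMB9 were 3.50 and 3.62, beside 3.58 for NFKBIE. Such closeness follows from the choice of genes by these same values, and shared regulation was not tested.

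Upstream of the family, kinases and their partner proteins had shares of calls near those of all genes tested (40.4% higher and 39.8% lower). Their list counted 12 genes, of which 5 were higher, 4 were lower and 3 missed the threshold (median log2 fold change 0.26). TAB1, TAB2, TAB3 and IKBKG among them do not encode kinases. MAP3K14, the kinase of the non-canonical route, rose from 9.16 ± 0.062 to 24.3 ± 4.24 CPM (1.41 ± 0.14, adjusted p = 1.2e-06, edgeR), and RIPK1, the kinase scaffold of the TNF receptor complex, rose by 1.47 ± 0.11. CHUK (IKK-alpha) fell from 92.7 ± 4.80 to 55.1 ± 5.12 CPM (-0.75 ± 0.09), which no longer passed once GC and length were corrected for (-0.08, adjusted p = 0.31). IKBKB (IKK-beta) was at 0.20 ± 0.09 (adjusted p = 0.060), which passed without siOSBPL3 replicate 1 or 3 and in 2 other alternatives. IKBKG, the regulatory subunit, was at 0.34 ± 0.21 (adjusted p = 0.15, and -0.61 with the correction), and it has a near-identical pseudogene, so its counts are uncertain. TBK1, a relative of the IKK kinases, was at 0.09 ± 0.10 (adjusted p = 0.42). It passed with the correction, at 0.71 (adjusted p = 6.4e-06), and its lowest value over the alternatives was -0.0059.

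Adaptors and ubiquitin enzymes also had shares near those 40.4% and 39.8%, with 9 of 21 higher, 7 lower and 5 not passing (median 0.06). Their largest change was that of TRAF5, an adaptor of TNF-family receptors singled out after its values were seen, which fell from 332 ± 3.05 to 27.7 ± 2.62 CPM (-3.58 ± 0.10), and was also lower with the correction. TRAF1, itself a common NF-kB target, rose from 2.72 ± 0.57 to 8.37 ± 0.57 CPM (1.62 ± 0.20), and TRAF2 (1.31 ± 0.12) and TRAF3 (1.09 ± 0.08), which hold the MAP3K14 kinase in check, rose as well. TRAF6, the ligase of the interleukin-1 and Toll-like routes, fell from 44.1 ± 1.12 to 12.2 ± 0.88 CPM (-1.85 ± 0.10), whereas MYD88, the adaptor above it, rose (0.93 ± 0.13). RNF31, which builds linear ubiquitin chains, rose by 0.44 ± 0.11 but was lower with the correction (-0.25, adjusted p = 0.026). TRADD, the adaptor of the TNF receptor, was at 0.24 ± 0.11 (adjusted p = 0.069), passed without siOSBPL3 replicate 1 and with library totals, and was at -0.94 with the correction. TRAF2 and TRAF6 became 0.43 and -1.23 there.

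Most other inhibitors and terminators of the pathway were higher. Of 15 tested, 11 rose and 4 fell (median 1.18), beside 40.4% and 39.8% of all genes tested. TNIP1, a partner of the TNFAIP3 product, rose from 39.5 ± 1.85 to 406 ± 43.0 CPM (3.36 ± 0.10, adjusted p = 6.1e-11, edgeR). The atypical nuclear IkB genes NFKBIZ (2.60 ± 0.14) and BCL3 (2.29 ± 0.14) rose too, BCL3 to 0.98 with the correction. The deubiquitinase genes CYLD (-0.77 ± 0.10) and OTULIN (-1.08 ± 0.11) fell, but with the correction CYLD turned to 0.24 (adjusted p = 0.018) and OTULIN shrank to -0.31.

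Receptors and ligands of the pathway were mostly higher. Among 14 tested receptor genes 11 were higher, 2 lower and 1 missed the threshold (median 1.62), beside 40.4% and 39.8% of all genes tested, and CD40, with 6 and 11 counts over the groups, could not be tested. TNFRSF1A, the main TNF receptor, rose from 29.2 ± 1.83 to 99.7 ± 8.48 CPM (1.77 ± 0.09), LTBR, which feeds the non-canonical route, by 1.42 ± 0.10 (0.48 with the correction), the interleukin-1 receptor gene IL1R1 from 0.21 ± 0.14 to 13.6 ± 2.00 CPM, and TLR3, a sensor of double-stranded RNA, by 3.85 ± 0.28. The 2 that fell were IL1RAP, the co-receptor of IL1R1, from 11.7 ± 0.95 to 4.17 ± 0.38 CPM, and TLR4, the sensor of bacterial lipopolysaccharide, from 0.72 ± 0.43 to 0.0092 ± 0.016 CPM. Of 8 ligand genes tested 6 rose and 0 fell (median 3.42), where 40.4% and 39.8% of all genes tested did. TNF rose from 0.55 ± 0.10 to 4.00 ± 0.25 CPM (2.87 ± 0.29) and LTB from 1.39 ± 0.25 to 21.7 ± 4.50 CPM (3.97 ± 0.21, and 2.60 with the correction). IL1A had no count in siNC and 3.25 ± 0.53 CPM in siOSBPL3, at least 104-fold higher against a floor of 3 counts over the siNC group. IL1B had 0 counts in siNC and 8 in siOSBPL3 and was not tested.

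Of 21 tested genes from a list of 25 textbook NF-kB targets, 16 were higher, 2 lower and 3 missed the threshold (median 1.35), beside 40.4% and 39.8% of all genes tested. ICAM1, an adhesion receptor for leukocytes, rose from 2.90 ± 0.59 to 168 ± 21.4 CPM (5.85 ± 0.15, adjusted p = 1.8e-11, edgeR). The neutrophil chemokine genes CXCL1 (2.65 ± 0.13) and CXCL8 (1.76 ± 0.12) rose. So did SOD2, a mitochondrial antioxidant enzyme (1.02 ± 0.13), IRF1 (1.17 ± 0.10) and CFLAR, an inhibitor of caspase-8 activation (0.76 ± 0.09), of which SOD2 and CFLAR reached 2.17 and 1.79 with the correction. CCL20, an epithelial chemokine, fell from 77.0 ± 3.05 to 36.4 ± 7.19 CPM (-1.08 ± 0.12), and TNFAIP2 was the other target that fell. IL6 was not analysed here.

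**Figure D4:**
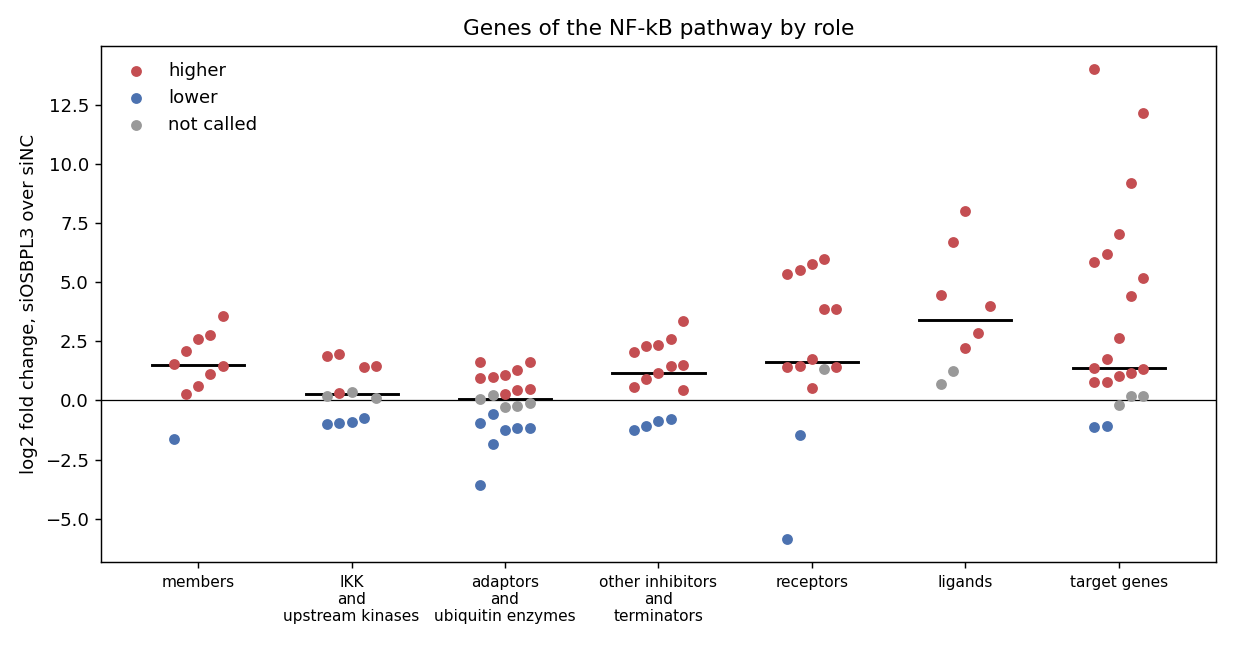
Log2 fold change of each tested gene by role, siOSBPL3 over siNC, with black bars at the medians; red points passed the test as higher, blue as lower, and grey did not pass. Genes without a count in siNC are drawn at their lower bound. Medians run from 0.06 for adaptors to 3.42 for ligands.

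Across all genes the kappaB consensus went with small differences, given with no test. Of 1888 tested genes with the consensus 44.4% were higher and 37.7% lower, against 39.9% and 40.4% of 10155 genes without it, with median log2 fold changes of 0.12 and -0.02. REL, which fell, carries the motif 47 bases before its start, and the other 6 genes of the family with the motif were higher, NFKBIB not with the GC and length correction.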

How the data were processed

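RNA of 6 SW620 libraries was extracted with Trizol and read from both fragment ends, per the labels' protocols. The authors deposited whole-number read counts per gene symbol, with no normalization. HISAT2 2.2.1, HTSeq 0.13.5 and GRCh38 are named in the submitters' processing notes. The annotation and strand setting are not given in the sources used here. Groups came from sample titles. The genes, lists and motif search were chosen with earlier results of these data known.

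edgeR 4.0.16 (R 4.3.3) was run after filterByExpr (minimum count 10, total 15) and TMM scaling. Its robust quasi-likelihood model held only the group. Tests were two-sided. P-values were adjusted by Benjamini and Hochberg's method across the whole table of tested genes, and 0.05 was the threshold. The test was checked on simulated counts. Floors cover counting error only. Library totals, given above, set the precision of low genes. All pairs of libraries in a group differed by more than sampling noise, the siOSBPL3 pairs far more. Chi-square per degree of freedom was 2.96 to 3.56 for siNC pairs and 19.5 to 52.3 for siOSBPL3 pairs. The model held a common spread per gene for both groups. Named genes were the 10 members, OSBPL3, genes fixed for each list, and the 3 most similar genes of the 3 members of largest change, of which 1 is not reported here. TNFAIP2, IL1RAP and TLR4 complete counts, cell type markers serve as a check, and TRAF5 was added after its values were seen.

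The 14 alternatives used DESeq2 1.42.0, limma-voom 3.58.1, RLE factors, unscaled totals, unfiltered genes, genes averaging 5 CPM or more, a replicate block, the removal of each library, and a smooth per library (mgcv 1.9.3) over GC content and length of the longest GENCODE 29 transcript, known for 93.1% of tested genes. Composition was also computed without division by length and with corrected fold changes. Positions and upstream sequences are from RefSeq on GRCh38.p14.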

Additional observations from a re-analysis of the deposited data

How the results depend on the processing

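Of the 140 fold changes of the 10 genes under 14 alternatives, 131 kept their direction and their side of the threshold. The others were NFKBIB, at -0.37 with the GC and length correction, and RELA under 8 alternatives, some given above. RELA was at 0.26 with DESeq2 or limma-voom and 0.27 with RLE factors (adjusted p from 0.051 to 0.057). With the GC and length correction RELA was at -0.20. The GC and length correction also gave 2 members lower in place of 1, 2 other inhibitors lower in place of 4 and 5 target genes lower in place of 2. With a mean of at least 5 CPM fewer genes were tested, and 3 ligands rose in place of 6, 6 receptors in place of 11, and 1 receptor fell in place of 2. By CPM alone NFKB2 made up 21.6% of the subunits in siNC, REL 28.9% and 4.71%, and the inhibitor ratio was 0.477 and 1.09. With the GC and length correction, an alternative chosen for the shares after seeing the data, NFKB2 made up 39.4% and REL 4.81% in siOSBPL3. With the replicate number as a block 9 members were higher and 1 lower, as without it, and 12277 genes passed in place of 12437. Deviations of libraries of the same number had correlations from -0.0088 to -0.0043, which cannot settle whether those libraries shared a culture or batch. Depth limited CD40 and IL1B, which held at most 11 counts over a group.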
